A study of Mus musculus with 2 samples.

Results

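Mir218-1 and Mir218-2 are the mouse genes for miR-218, a microRNA encoded in introns of the Slit genes. They were found by Ensembl gene ID through the GENCODE mouse annotation, and both of the 2 loci sought were among the 1973 counted miRNA genes. The values come from microRNA sequencing of embryonic heart of strain B6NCrl at day 11.5, RNA below 30 nt, in 2 libraries that form 1 group. Replicate 1 pooled hearts of 109 embryos, male and female; replicate 2 also pooled both sexes, with the number of embryos not stated in its labels. All hearts were untreated and labelled healthy, so no comparison between conditions could be made.

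A miRNA gene is transcribed as a hairpin whose 5p and 3p arms are cut out as short mature RNAs. A mature miRNA lowers the output of mRNAs that pair with its seed, bases 2 to 8. Slit proteins are secreted ligands of Robo receptors, known for steering growing axons, and Slit and Robo genes also act in heart tube and chamber formation. In zebrafish miR-218 represses a Robo receptor gene and takes part in the migration of heart precursors. In mouse it is best known from motor neurons.

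The mature sequences are shown first because they bear on what a count at either locus can hold. They are credited to RefSeq on GRCm38.p6, the build also called mm10, and run 5′ to 3′ with the seed in capitals.
miR-218-5p, of both loci: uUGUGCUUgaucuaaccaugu
miR-218-1-3p, of Mir218-1 alone: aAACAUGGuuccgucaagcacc
miR-218-2-3p, of Mir218-2 alone: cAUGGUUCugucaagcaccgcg
The 5p arm was the same 21 bases at both loci, whereas each 3p arm was an entry of its own. The annotated 3p arm started 3 bases earlier in Mir218-1, so the 3p seeds differed although the arms lie over each other for 19 bases. Set position by position on the Mir218-2 hairpin, miR-218-1-3p differed by A1G and C12U, counted from base 1 at its 5′ end, with the base of miR-218-1-3p first. C12U was the only difference within the 19 shared bases.

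Among 1738 RefSeq mouse mature entries under 1679 names, the 5p seed UGUGCUU was shared with 1 other name, miR-7002-3p. Mir7002 had 1 count in replicate 1 and 0 in replicate 2. The seed of miR-218-1-3p, AACAUGG, was shared with miR-496b, whose gene Mir496b had 0 counts in both libraries. The seed of miR-218-2-3p, AUGGUUC, occurred in no other name. Seed sharers therefore added next to no counts to those of the Mir218 loci, by this table.

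The hairpins are shown with both mature arms in capitals, since the letters of the 3p arms and around the arms are what tells the loci apart.
Mir218-1, chr5:48223942-48224051, plus strand: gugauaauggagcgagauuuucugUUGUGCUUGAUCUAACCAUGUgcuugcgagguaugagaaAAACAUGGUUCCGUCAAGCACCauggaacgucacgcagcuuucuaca
Mir218-2, chr11:35616816-35616925, plus strand: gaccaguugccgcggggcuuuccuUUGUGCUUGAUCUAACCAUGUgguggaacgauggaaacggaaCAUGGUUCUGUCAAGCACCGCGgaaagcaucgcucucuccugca
Both hairpins were 110 bases long and held the 5p arm at bases 25 to 45. Compared without gaps, 71 of 110 positions (64.5%) were identical. The GC content was 45.5% for Mir218-1 and 54.5% for Mir218-2. Minimum free energies from RNAfold were -36.6 kcal/mol for Mir218-1 and -42.3 kcal/mol for Mir218-2. In the predicted folds 17 of the 21 bases of the 5p arm paired with the 3p arm in Mir218-1, and 16 did so in Mir218-2.

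The longest run the hairpins had in common was 22 bases, from base 25 to base 46 in each, which is the 5p arm and the base after it. Of the 91 windows of 20 bases in either hairpin, 3 were found exactly in the other, 5 came within 1 mismatch and 83 had at least 2 mismatches. At 22 bases 1 window was shared, and at 23 bases 0 of 88 were. A read within bases 25 to 46 fits both loci equally, and a read over the 5p arm differs between them only where it reaches outside those bases. In the 3p arm, the full 22 bases of either entry had at least 2 mismatches to the other hairpin. Shorter stretches came closer. At 20 bases, 2 of 3 windows of miR-218-1-3p and 0 of 3 of miR-218-2-3p had 1 mismatch. At 18 bases, 4 of 5 and 2 of 5 did so. None of the windows of 18 to 23 bases matched any of the other RefSeq hairpins, 1005 in all with these. In 141767 GENCODE M21 transcripts, 18-base windows of the Mir218 hairpins matched 1 gene besides the loci themselves. It was Col4a3bp, a ceramide transport gene, with 1 window of Mir218-1 on the opposite strand. The genome itself was not searched here.

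**Figure D1:**
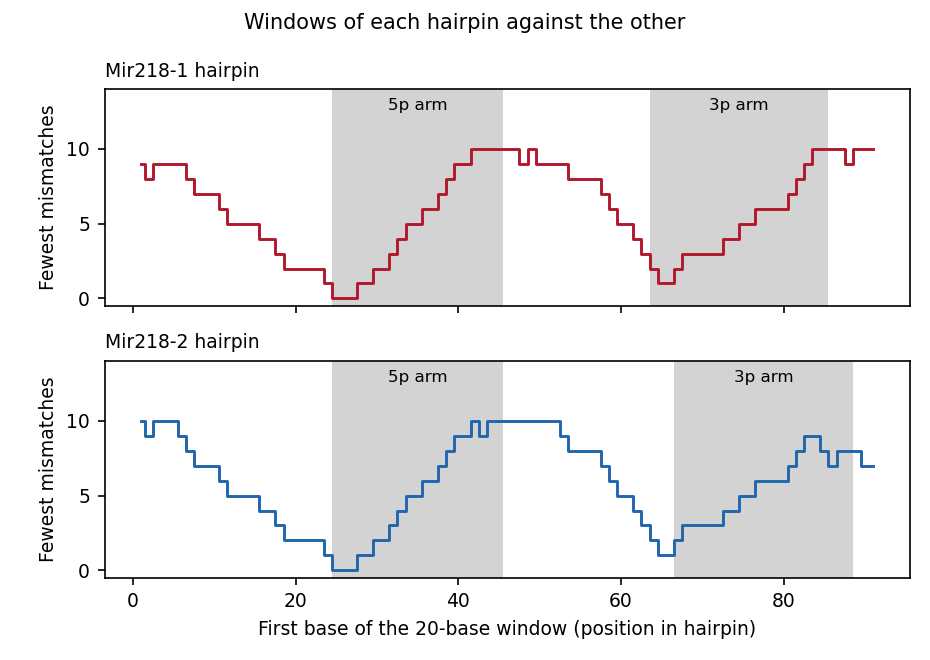
Fewest mismatches (y axis) between each 20-base window of a hairpin and the best window of the other hairpin, by the window's first base (x axis); Mir218-1 is above and Mir218-2 below, with the mature arms shaded. Exact matches, at 0 mismatches, occur for 3 windows starting within the 5p arm, and the windows that start at bases 65 and 66 come down to 1 mismatch in both hairpins, starting inside the annotated 3p arm of Mir218-1 and just before that of Mir218-2.

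Both loci lie inside their host genes on the same strand, and neither overlapped an exon of an annotated host transcript. Mir218-1 (ENSMUSG00000065603.1) lies in an intron of Slit2 (ENSMUSG00000031558.15, chromosome 5, 47983138 to 48307733). It is intron 14 in the protein-coding transcript of 36 exons, and intron 15 or 16 in the other protein-coding transcripts that span the hairpin. The next exon starts 601 bases downstream of the hairpin. Mir218-2 (ENSMUSG00000065583.1) lies in an intron of Slit3 (ENSMUSG00000056427.10, chromosome 11, 35121224 to 35708507). It is also intron 14 of a protein-coding transcript of 36 exons, which is the only one of 4 annotated transcripts to span the hairpin. The intron of the 36-exon transcript measures 4572 bases in Slit2 and 9571 bases in Slit3. No further M21 gene overlapped either hairpin on either strand.

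Both libraries held reads at both loci, all on the genes' own strand. The depth over all miRNA genes was 18467499 own-strand counts for replicate 1 and 2017294 for replicate 2. Levels are given as CPM, counts scaled to a total of 1000000 per library, and a count of 0 allowed up to 0.162 CPM in replicate 1 and 1.49 CPM in replicate 2. Mir218-1 had 257 counts in replicate 1 and 35 in replicate 2, or 13.9 CPM and 17.3 CPM. Their exact 95% Clopper-Pearson intervals were 12.3 to 15.7 CPM and 12.1 to 24.1 CPM, and these intervals overlapped. Mir218-1 averaged 15.6 ± 2.43 CPM (SD, n = 2).

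Mir218-2 had 923 counts in replicate 1 and 110 in replicate 2, or 50.0 CPM and 54.5 CPM. The intervals were 46.8 to 53.3 CPM and 44.8 to 65.7 CPM. Mir218-2 averaged 52.3 ± 3.22 CPM (SD, n = 2). Every value of Mir218-2 lay above every value of Mir218-1, and the intervals of the loci did not meet. Intervals cover counting error only and treat every read as independent. They are too narrow where reads are copies of 1 molecule, which the counts cannot show. On the strand opposite the hairpins 0 counts were found in both libraries.

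The loci together reached 63.9 CPM in replicate 1 and 71.9 CPM in replicate 2, which averages 67.9 ± 5.64 CPM (SD, n = 2). This sum is not the amount of miR-218. By the layout of the tables a read that fits several places stands in a separate multimapping row and on no gene. That row held 33.8% of the mapped reads in replicate 1 and 33.2% in replicate 2. How many of its reads were miR-218-5p was not tested, and the tables do not give the arm from which a counted read came.

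**Figure D2:**
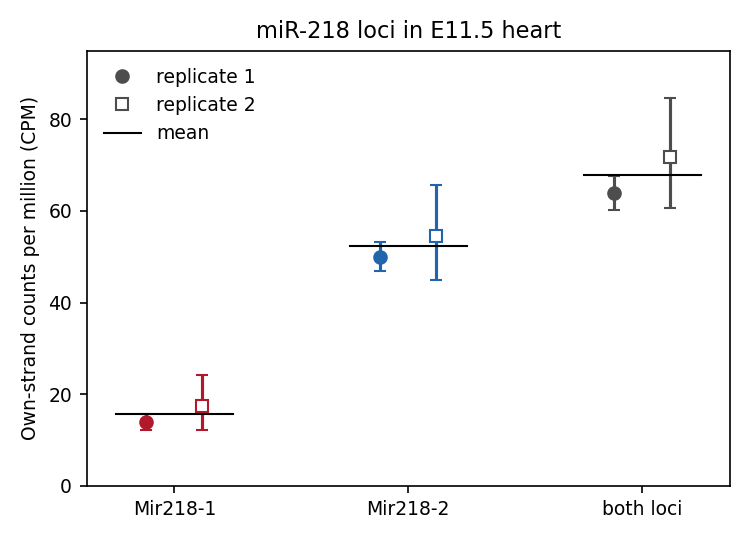
Own-strand CPM (y axis, from 0) of Mir218-1, Mir218-2 and both loci summed in replicate 1 (filled circles) and replicate 2 (open squares), with exact 95% intervals as bars and the mean of 2 libraries as a line. Mir218-1 sits at 13.9 and 17.3 CPM, below Mir218-2 at 50.0 and 54.5 CPM in both libraries.

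Counts at the Slit2 locus were lower than counts at the Slit3 locus by a like factor in both libraries. The log2 ratio of Mir218-1 to Mir218-2 was -1.84 in replicate 1, with an exact binomial interval of -2.05 to -1.64. It was -1.65 in replicate 2, with an interval of -2.24 to -1.09. The mean log2 ratio was -1.75 ± 0.14 (SD, n = 2), which puts Mir218-1 3.36-fold below Mir218-2. Mir218-1 held 21.8% of the counts of both loci in replicate 1 (19.5 to 24.2%) and 24.1% in replicate 2 (17.4 to 31.9%). The mean difference was larger than the spread between the libraries, given by that SD of 0.14, and both counting intervals excluded equality. No p is given, because a two-sided sign-flip test over 2 libraries cannot go below 0.5. The ratio compares the reads that could be placed, which need not be a like part of the output of each locus. In whole hearts, fewer cells of a type and less RNA per cell cannot be told apart.

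By mean CPM Mir218-1 ranked 282 and Mir218-2 ranked 230 among the 1973 counted genes. Both were detected, meaning 1 CPM or more in both libraries, as were 419 of 1973 genes. Among those 419, 32.7% lay below Mir218-1 and 45.1% below Mir218-2, and the median was 80.5 CPM. The loci were thus counted well above the floor but in the lower part of the detected genes. These ranks rest on reads placed at each locus and do not rank the amount of miR-218. Most detected genes, 375 of 419, had no other counted locus under a symbol that differs only in a last number.

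In the order of mean CPM over 2 libraries, Mir6944, Mir3058 and Mir1249 stood just above Mir218-1. Just below it stood Mir1188, Mir5113 and Mir8114. The mean levels of these 6 genes ran from 15.9 CPM for Mir1249 down to 15.3 CPM for Mir8114. The library ranges of all 6 overlapped that of Mir218-1. Around Mir218-2 stood Mir670, the skeletal muscle miRNA Mir206 and Mir701 above, and Mir666, Mir7-1 and Mir3072 below. Mir206 had 65.6 and 48.6 CPM in replicates 1 and 2, and Mir7-1 averaged 48.6 ± 2.77 CPM (SD, n = 2). Of these 6, Mir670, at 55.6 and 59.5 CPM, and Mir3072, at 47.1 and 46.6 CPM, lay outside the range of Mir218-2. In all, the range of Mir218-1 overlapped that of 24 other genes, and the range of Mir218-2 that of 11. Likeness here rests on level in 1 tissue at 1 age.

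Along the chromosomes the loci stood alone. The counted miRNA genes nearest to Mir218-1 were Mir6414, 6333 kb to the left, and Mir8117, 2029 kb to the right, both with 0 counts in both libraries. Nearest to Mir218-2 were Gm26052, 2633 kb to the left with 0 counts, and Mir103-1, 165 kb to the right. Mir103-1, which lies in the pantothenate kinase gene Pank3, had 59 counts in replicate 1 and 6 in replicate 2, or 3.19 CPM and 2.97 CPM. By placed reads, Mir218-2 stood above its nearest counted neighbour on chromosome 11 in both libraries. Mir103-1 also has a second locus, Mir103-2, so both levels may leave out reads that fit several places, to an unknown degree.

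Mir218 was next set beside other families whose symbols differ only in a last number. Of 36 families with exactly 2 counted loci, Mir218 ranked 13 by summed CPM and held 0.716% of what these families held. The 5 highest were Mir92 at 3060 CPM, Mir16 at 2407 CPM, Mir125b at 1131 CPM, Mir181a at 1112 CPM and Mir181b at 592 CPM, of which Mir92 lies in clusters active in proliferating cells and Mir16 is known to repress cell cycle genes. Both loci were detected in 19 of the 36 families. In Mir218 the higher locus held 77.0% ± 1.67 of the family's counts (SD, n = 2), beside a median of 80.3% over the 19 families and a range from 50.5% to 98.5%. The share was lower than in Mir218 for 8 of these families and higher for 10. The uneven split between the Slit loci lay near the middle of these families. Of the counted genes, 87 carry a RefSeq mature sequence found at another locus. Of those, 53 also have an arm of their own, as the Mir218 loci do, and 39 of the 53 (73.6%) were detected. Among the other 34 genes, with no arm of their own, 7 (20.6%) were detected, and 419 of all 1973 were. RefSeq hairpins matched 869 of the 1973 genes, so these numbers cover part of the table. All 1973 genes are therefore not a like background for the 53 and the 34. Whether an arm of its own bears on a gene's detection was not tested.

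**Figure D3:**
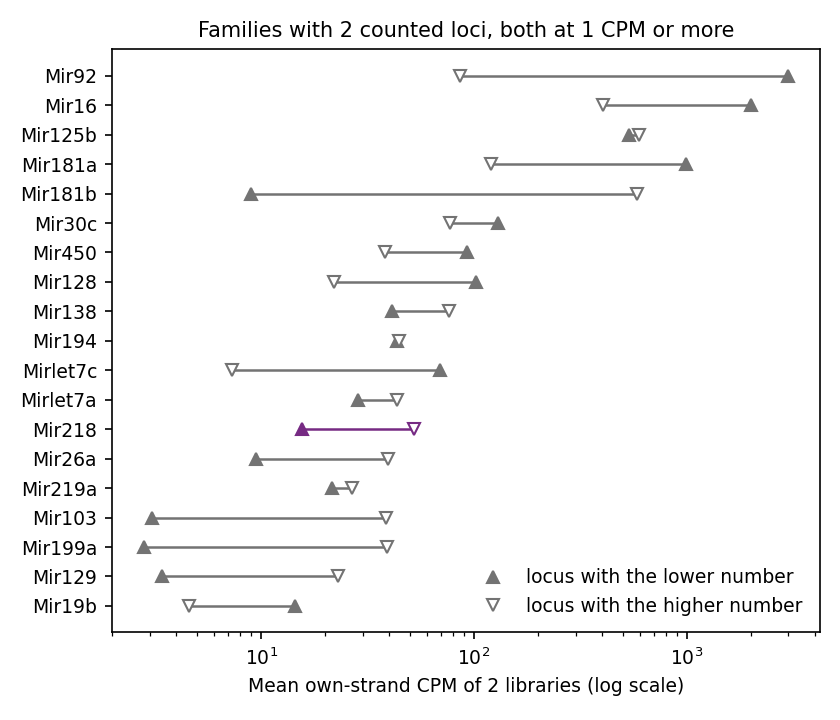
Mean own-strand CPM of 2 libraries (x axis, log scale) for each locus of the 19 families with 2 counted loci that were both at 1 CPM or more, ordered by summed level, with Mir218 in purple; filled triangles mark the locus with the lower number. Mir218-1 at 15.6 CPM and Mir218-2 at 52.3 CPM are neither the closest nor the farthest apart.

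The Slit genes are paralogs, and the loci were compared with other miRNAs that sit in paralogous host genes. All 13 listed genes lie inside the host named for them on the same strand, and all 13 were detected. Their median level was 52.3 CPM, the value of Mir218-2 itself, and 102 CPM for the 11 genes without Mir218, beside 80.5 CPM over all detected genes. The cardiac miRNAs Mir208b in Myh7 and Mir208a in Myh6, hosts that encode myosin heavy chains, stood at 48339 and 10631 CPM, and Mir499 in Myh7b stood at 1795 CPM. In Ctdsp genes, which encode small phosphatases, Mir26b stood at 23736 CPM, Mir26a-2 at 39.5 CPM and Mir26a-1 at 9.42 CPM. In the pantothenate kinase genes, Mir107 stood at 2264 CPM, Mir103-2 at 38.7 CPM and Mir103-1 at 3.08 CPM. Mir128-1 in R3hdm1 stood at 102 CPM and Mir128-2 in Arpp21 at 22.1 CPM. The 8 genes with a numbered twin, Mir218 included, all lay at or below 102 CPM, and the 5 without one all lay at or above 1795 CPM. So clean a split belongs to this short list and was not complete over all genes. Mir92-1, the highest of all genes with a numbered twin, averaged 2974 CPM. Of the 110 genes whose symbols differ from another only in a last number, 44 were detected, beside 375 of the 1863 others. Together those 110 genes held only 9487 CPM on average, and the 1863 others held 990513 CPM. Mir218-2 was second to Mir128-1 among the 8, and its library range lay above those of the 6 others in both libraries.

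**Figure D4:**
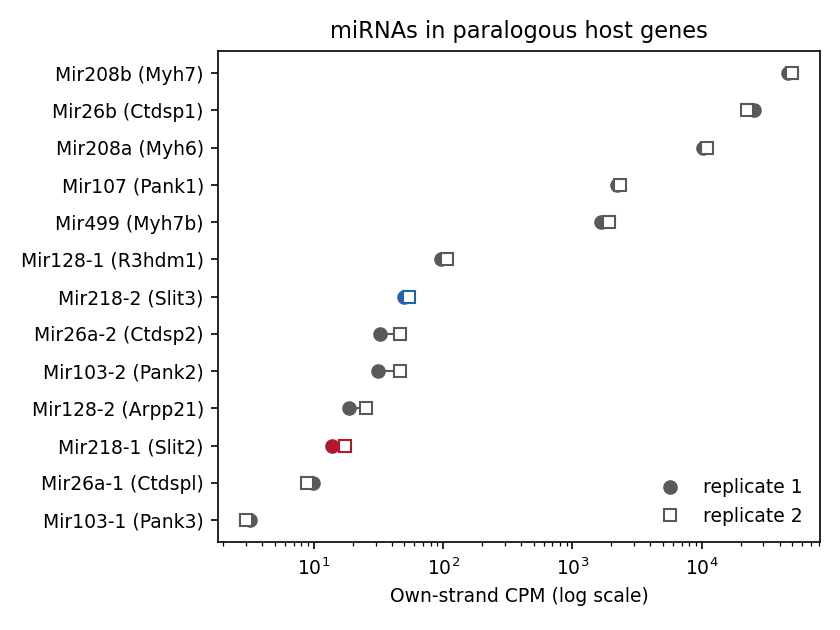
Own-strand CPM (x axis, log scale) of 13 miRNAs in paralogous host genes, host in brackets, in replicate 1 (filled circles) and replicate 2 (open squares). Mir218-2 (blue) and Mir218-1 (red) lie among the 8 loci with a numbered twin, from 3.08 to 102 CPM on average.

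Neither locus passed the test between the libraries. Mir218-1 in replicate 2 was 1.25-fold its level in replicate 1, with an exact interval of 0.850 to 1.78 (log2 ratio 0.32, exact binomial test with Benjamini-Hochberg adjustment over 419 genes, adjusted p = 0.463). Mir218-2 was 1.09-fold, with an interval of 0.887 to 1.33 (log2 ratio 0.13, exact binomial, adjusted p = 0.618). Both were higher in replicate 2, and the sum was 1.12-fold (0.940 to 1.34). Neither reached an adjusted p of 0.05 with a change of 2-fold, a limit that 2.63% of the 419 genes passed, nor the adjusted p alone, which 29.4% of them passed. This test compares libraries, not conditions, and at 35 counts in replicate 2 it left room for a change of up to 1.78-fold in Mir218-1.

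**Figure D5:**
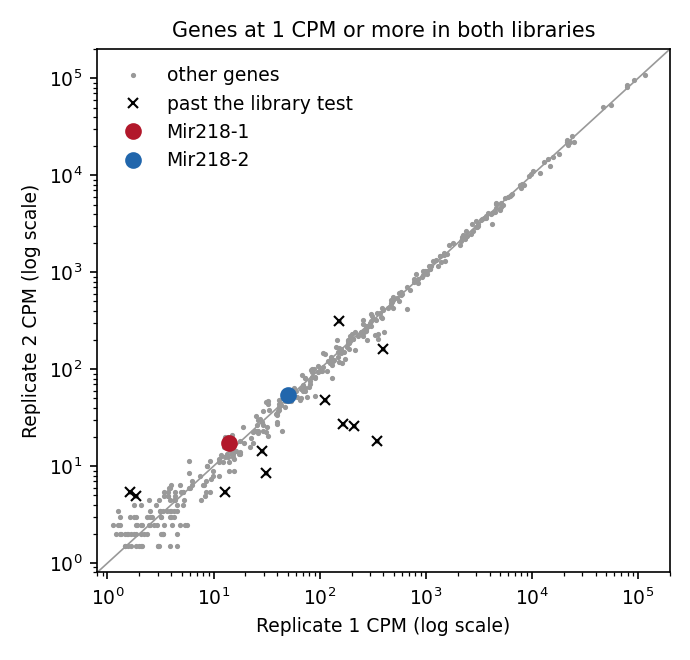
CPM in replicate 2 (y axis, log scale) against replicate 1 (x axis, log scale) for the 419 genes at 1 CPM or more in both libraries; crosses mark the 11 genes past the library test and the line marks equality. Mir218-1 (red) and Mir218-2 (blue) lie close to the line, at 1.25-fold and 1.09-fold.

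Of 7 listed heart muscle miRNAs, 6 were counted and 5 detected. They took 58397 CPM in replicate 1 and 63144 CPM in replicate 2, nearly all from Mir208b, Mir208a and Mir499. The others, whose symbols carry a locus number as those of Mir218 do, were low, with Mir133a-1 at 3.54 CPM, Mir1a-1 at 2.23 CPM and Mir133a-2 at 0.623 CPM on average. The endothelial Mir126a had 79505 CPM in replicate 1 and 84700 CPM in replicate 2. Neural miRNAs, listed because motor neurons are a known site of miR-218, took 343 CPM in replicate 1 and 339 CPM in replicate 2 over 14 counted members. Of these 14, 9 were detected, led by Mir128-1, Mir138-2 and Mir138-1 at 102, 76.3 and 41.1 CPM on average. Whether the counts of the list came from neural tissue was not tested. Mir9-2, Mir124a-1 and Mir124a-3 had 0 counts in both libraries. Those 3 loci have numbered twins, so their counts do not measure miR-9 or miR-124. The liver miRNA Mir122 had 395 CPM in replicate 1 and 160 CPM in replicate 2, above both Mir218 loci by placed reads. The Mir218 counts may leave out reads that fit both loci, so this does not rank miR-122 against miR-218. Mir122 passed the library test, as 11 of 419 genes did, among them the neural Mir219a-1 and the heart muscle Mir133a-1. Which cells gave the Mir218 reads, in the heart or in other tissue taken with it, was not tested.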

How the data were processed

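The tables the authors deposited hold unnormalized read counts for each miRNA gene, on mm10 with GENCODE M4 per the notes deposited with them. No source used here names the aligner or the counter. The 3 unlabelled count columns were taken, from their layout, as both strands, own strand and opposite strand, and own-strand counts were used. The 4 summary rows stayed out of library sizes. They held 38.4% unmapped, 20.8% multimapping, 8.77% no-feature and 0% ambiguous reads in replicate 1, and 27.5%, 24.1%, 7.04% and 0% in replicate 2. Symbols and coordinates (1-based) came from GENCODE M21 on the same build, which matched 1894 of 1973 genes by ID, and sequences from RefSeq.

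CPM, shares with exact intervals, and the library test (two-sided exact binomial given the totals) were computed in Python 3.11.15 with scipy 1.17.1. That test was checked only on counts simulated with counting error alone, without the further spread between these libraries. Library factors for alternatives came from edgeR 4.0.16 (TMM) and DESeq2 1.42.0, and folds from RNAfold 2.7.2. The labels name biological replicates but not their litters, so spread between them may be partly technical. Other genes were named by rule: the 3 next above and below each locus in level, the nearest on the chromosome, the 5 highest families of 2 loci, the paralogous host list and the marker lists. Loci, lists and tests were chosen with earlier results of these data known; the seed sharers and Col4a3bp were found by the sequence search. The planned genome search was replaced by a search of hairpins and transcripts.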

Additional observations from a re-analysis of the deposited data

How the results depend on the processing

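Of 56 values recomputed under alternatives, 48 stayed and 8 moved. Staying meant within the spread between replicates, on the same side of the threshold or, for counts of genes, within 1.5 times. Some of the 48 could not have moved, so the tally does not measure robustness. With 2 libraries, the level in either one always lies within 1 SD of the mean. Opposite-strand counts of 0 fix the ratio of the loci, and a CPM or fold minimum leaves a locus's own library ratio unchanged. Per 1000000 mapped reads, multimapping reads included, Mir218-1 stood at 8.56 CPM, Mir218-2 at 28.5 CPM and their sum at 37.1 CPM; the denominator is larger by construction. With both strands counted Mir218-2 ranked 239. With either library left out Mir218-2 ranked 221 to 232, Mir218-1 ranked 274 to 291, and the log2 ratio of the loci was -1.84 to -1.65. Both strands and added counts of 0.5 or 5 kept that ratio between -1.75 and -1.67, and TMM or DESeq2 scaling moved neither locus beyond its spread. Genes past the library test numbered 11, against 7 with a minimum of 10 CPM, where fewer genes are tested. They numbered 123 with no fold minimum and 4 with edgeR's exact test. The spread that edgeR's test allows for was estimated from the difference between these same 2 libraries, pooled over genes. That works against finding a difference, so its result adds no support. Neither Mir218 locus passed under any alternative run. Adjusted p-values from the exact binomial test ran from 0.388 to 0.707 for Mir218-1 and from 0.544 to 0.863 for Mir218-2. Mir218-1 rests on 35 counts in replicate 2, which limits its precision there. No paired analysis was possible because the samples form 1 group.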
